A study of Mus musculus with 12 samples.

Results

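Antibody-secreting cells (ASCs) sorted from spleen were compared with those sorted from bone marrow. Of the 37611 barcodes that the deposited filtered lists of the 4 libraries call cells, 8308 were kept for the comparison, 5416 from spleen and 2892 from bone marrow. The filtered lists of all 6 gene expression libraries of the series hold 39949 barcodes. A barcode was kept if it had at least 1000 unique molecular identifiers (UMIs, 1 per captured RNA molecule) outside genes whose symbol starts with Igh, Igk or Igl, under 10% of UMIs from mitochondrial genes, and at least 50% of its light-chain V UMIs from 1 Igkv or Iglv gene. The last condition selects droplets dominated by 1 antibody, as a single ASC should be. Genes starting with Igh, Igk or Igl were left out of the sums that were compared.

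The mice were Prdm1-eYFP reporter animals of The Jackson Laboratory on a C57BL/6 background, 3 months old, and all 4 libraries carry the same reporter. Each sort pooled 3 mice of 1 sex and gated B220+/- CD138HI IgD- CD90.2- Prdm1-eYFP+ cells, so the groups are bone marrow from a female and a male pool and spleen from a female and a male pool. Each sex and organ had its own droplet well (10x Genomics 5' chemistry), so a tissue has 2 libraries, and each combination of organ and sex exists once. Sex is a term of the model, and with so few libraries the spread behind the p-values is shared over genes of like abundance rather than each gene's own, and it may be technical. Nothing in the labels tells whether spleen and bone marrow of a given sex were taken from the same animals.

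ASCs are the end stage of the B cell lineage. Spleen produces short-lived plasmablasts and plasma cells in its red pulp and at its follicle borders, while bone marrow is the classical niche in which plasma cells persist for long periods, held by adhesion molecules, chemokines and survival cytokines. Both populations depend on the transcription factors Blimp-1 (Prdm1), Xbp1 and Irf4 and on a large secretory apparatus.

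The kept cells held 5669250 and 9285005 UMIs outside immunoglobulin genes in the female and male bone marrow libraries and 21285789 and 7924821 in the spleen libraries. Median depth per cell lay between 2804.5 and 4352 such UMIs. Female spleen stood apart from the other libraries in its ribosomal protein genes. These took a median of 10.3% of its cells' UMIs outside immunoglobulin genes. The medians were 3.87%, 2.72% and 3.14% in female bone marrow, male bone marrow and male spleen. All ribosomal shares below are likewise taken over UMIs outside immunoglobulin genes. In male spleen, 551 of 1850 cells (29.8%) had Ighv9-3 as their leading heavy-chain V gene, against 1.46% to 2.89% in the other libraries. The labelled sexes fit the data, with Xist at 969 and 777 CPM in the female bone marrow and spleen libraries and 0.618 and 0.886 CPM in the male ones. Between any 2 of the libraries 0 to 11 kept barcodes were shared. No doublet caller was run. From the UMIs that a cell held of light-chain V genes it did not lead with, RNA from outside the cell was estimated at 10.5% and 8.58% of UMIs in female and male bone marrow and 18.0% and 15.3% in spleen.

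The genes that define the sorted cells were abundant in every library. Prdm1, which encodes Blimp-1, was at 930 and 1021 CPM in bone marrow (female, male) and at 976 and 738 CPM in female and male spleen, where CPM is the UMI count of a gene scaled to the library's UMIs outside immunoglobulin genes, with TMM scaling to correct for composition. Xbp1, which drives the secretory programme, was at 3190 and 3450 CPM in bone marrow and 4162 and 3254 CPM in spleen. Sdc1, which encodes the sort marker CD138, was at 385 and 502 CPM in bone marrow and 330 and 348 CPM in spleen. Irf4 lay between 313 and 432 CPM. None of these 4 genes was called in edgeR's quasi-likelihood test (adjusted p = 0.9996 each). Their standard errors on the log2 scale were 0.46 for Prdm1, 0.58 for Xbp1, 0.39 for Irf4 and 0.40 for Sdc1. Among ASC genes the standard error was 0.98 for the abundant Jchain and 0.25 for Cd38. A missing call for abundant genes, here or in later lists, does not show equal levels. Of a list of 20 ASC genes 0 were called in either direction, 1 of them had an unadjusted p under 0.05, and none passed in DESeq2 either (0).

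A gene was called different between the tissues if edgeR's quasi-likelihood test, with sex and tissue in the model and Benjamini-Hochberg adjustment over all 11207 genes tested, gave an adjusted p under 0.05 and the log2 ratio had the same sign in the female and in the male pools. This rule called 154 genes (1.37% of those tested), 51 higher in spleen (0.455%) and 103 lower in spleen (0.919%). The smallest called difference was 0.87 on the log2 scale. The count depends on the model. Without the sex term 15 genes were called, and DESeq2 called 20. Leaving out the female or male bone marrow library gave 32 or 28, against 235 without female and 523 without male spleen. Each of these fits with 3 libraries also lacks the sex term and takes its spread from the 2 pools of the other tissue, with the lone library assumed to vary like them. The condition on the sign in both sexes cannot be applied there, so a call rests on the adjusted p alone. Calls kept or lost there reflect all these changes and cannot be put down to the missing library alone. Over all genes tested, 700 of 11207 had an unadjusted p under 0.05 and 6005 had a log2 fold change above 0. Of the called genes 33 of the 51 higher and 58 of the 103 lower ones had a mean below 10 CPM.

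**Figure D1:**
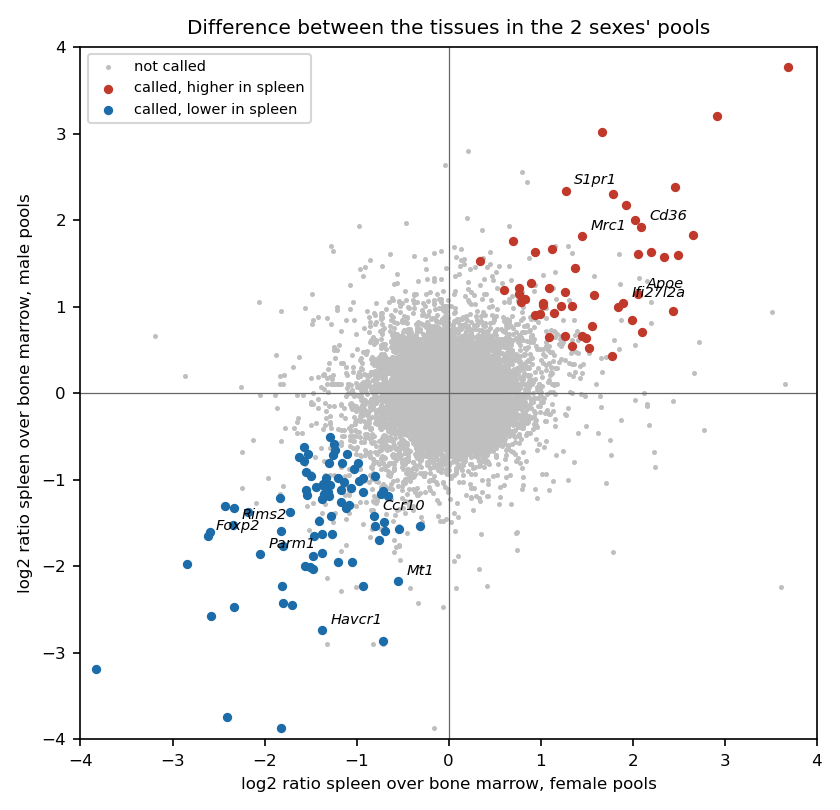
Each point is 1 gene, with the log2 ratio of spleen over bone marrow in the female pools on the x axis and in the male pools on the y axis, red and blue for genes called higher and lower in spleen and grey for the rest. The axes end at 4 on either side, which leaves 25 genes, 21 of them called, outside the plot. Cd36 lies near 2.09 and 1.92 and Parm1 near −2.04 and −1.87, while most genes lie near 0 on both axes.

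In each direction, 12 called genes with a mean of at least 10 CPM are described, ranked by the smaller of their 2 within-sex ratios. Marker genes of other cell types and sex-linked genes were left out of this ranking. Called members of the gene lists are described as well. Over all genes tested 0.455% were called higher and 0.919% lower, the shares beside which every list count below stands. Log2 fold changes are given as the estimate ± its standard error (SE). Among the genes higher in spleen, the leading 3 encode proteins that handle lipids or scavenge: Cd36, Mrc1 and Apoe. Cd36 (ENSMUSG00000002944, GRCm38 chr5:17781690-17888801), a scavenger receptor and fatty acid transporter, was at 6.21 and 4.63 CPM in bone marrow (female, male) and at 26.6 and 17.7 CPM in spleen. Both spleen libraries lay above both bone marrow libraries, with a log2 fold change for Cd36 of 2.01 ± 0.27 (n = 2 libraries per tissue, adjusted p in edgeR = 7.31e-11). Mrc1 (ENSMUSG00000026712, chr2:14229392-14332057), the mannose receptor, rose from 6.21 and 4.22 CPM to 17.1 and 15.0 CPM, with a log2 fold change of 1.64 ± 0.27 (adjusted p in edgeR = 9.03e-07). Apoe (ENSMUSG00000002985, chr7:19696109-19699188), the apolipoprotein of lipid particles, was at 56.3 and 42.6 CPM in bone marrow and 235 and 94.4 CPM in spleen, with a log2 fold change of 1.60 ± 0.32 (adjusted p in edgeR = 1.91e-04).

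Cd36, Mrc1 and Apoe are also expressed by macrophages, so macrophage markers are given beside them. The list of 19 macrophage and monocyte genes summed to 591 and 600 CPM in bone marrow and 706 and 567 CPM in spleen, ranges that overlap. Most of that sum was Ctsb, a lysosomal protease of many cell types, at 497 and 516 CPM in bone marrow and 632 and 509 CPM in spleen. Of the 10 members tested 8 had a positive log2 fold change, as Cd36, Mrc1 and Apoe had. The median was 0.64 (0.41 in the female and 0.37 in the male pools). Of these 10, 1 was called higher, C1qb at 3.84 and 3.19 CPM in bone marrow and 10.9 and 4.98 CPM in spleen, and 1 lower, Lyz2 at 47.0 and 30.7 CPM against 3.26 and 3.32 CPM. C1qb was called only without male spleen when 1 library was left out. Cd68, a lysosomal macrophage marker, was at 21.2 and 28.9 CPM in bone marrow and 29.5 and 19.8 CPM in spleen. Cells that held 3 or more UMIs from the marker list of another cell type (except mature B and dendritic cells) were then left out. Cd36, Mrc1 and Apoe were still called, at 2.56, 1.77 and 2.08. That removal left 782 of 1230 and 832 of 1662 bone marrow cells (female, male) and 1647 of 3566 and 1084 of 1850 spleen cells. They held 2226577 and 2680359 UMIs outside immunoglobulin genes in bone marrow and 5812865 and 3180308 in spleen. Ctsb is on these lists. Calls kept or lost under this removal, here and below, come with fewer cells and UMIs, and the part of each was not tested. Cd36 was seen in 315 and 95 cells of female and male spleen with at most 13 and 11 UMIs in 1 cell, while Apoe reached 440 UMIs in 1 cell of female spleen.

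Beyond these 3, no gene of the lipid and cholesterol list was called. Outside that list, Acsl3 was called higher and the hepatic lipase gene Lipc lower in spleen, both given below. Of the 26 genes of the lipid and cholesterol list 22 were tested. Called higher in spleen were 3 (the 3 above) and lower 0, against 0.455% and 0.919% over all genes tested. Mrc1 is counted there although the mannose receptor is not a lipid gene, and the list was chosen with earlier results of these data known. The list's median log2 fold change was 0.19 against 0.02 over all genes tested. A positive log2 fold change was found for 15 of the 22 and an unadjusted p under 0.05 for 5. Scd1, a fatty acid desaturase named after its values were seen, was at 6.21 and 5.77 CPM in bone marrow and 10.5 and 10.1 CPM in spleen (0.78 ± 0.28, adjusted p in edgeR = 0.204). Acsl3, which activates fatty acids and is not on that list, was at 7.31 and 7.21 CPM in bone marrow and 12.4 and 16.8 CPM in spleen, with a log2 fold change of 1.01 ± 0.26 (adjusted p in edgeR = 0.014).

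The other genes of this direction have diverse roles. Ifi27l2a, an interferon-inducible mitochondrial protein gene, was the most abundant, at 206 and 73.2 CPM in bone marrow and 765 and 150 CPM in spleen. Its log2 fold change was 1.47 ± 0.39 (adjusted p in edgeR = 0.0178), yet male spleen lay below female bone marrow, so the rise shows only within each sex. Tbxa2r, the thromboxane receptor, was at 12.1 and 8.24 CPM in bone marrow and 22.5 and 19.9 CPM in spleen (log2 fold change 1.09, SE 0.25, edgeR adjusted p = 0.00327), with no overlap. Smad3, a signal transducer of TGF-beta, was at 6.76 and 11.7 CPM in bone marrow and 11.7 and 24.5 CPM in spleen (0.94 ± 0.26), so that male bone marrow and female spleen were alike. Gpx3, a secreted glutathione peroxidase, was at 23.6 and 12.7 CPM against 69.5 and 21.7 CPM (1.18 ± 0.26), and here male spleen lay just below female bone marrow. Atp1b1, a subunit of the sodium pump, and Ckb, the brain-type creatine kinase, rose by log2 fold changes of 1.04 and 0.92, the predicted gene Gm8369 by 0.96 and the histone gene Hist1h3f by 0.95. For Gm8369, at 20.5 and 8.14 CPM in bone marrow and 40.7 and 15.4 CPM in spleen, male spleen lay below female bone marrow.

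The values of these genes with 1 library left out, sex out of the model and no sign condition were as follows. Without the female bone marrow library 1 of the 12 genes was called (Cd36 at 2.26), and without the male one 0 were. All 12 kept their direction there, between 0.43 for Gm8369 and 2.64 for Ifi27l2a, and Mrc1 (1.92), Apoe (1.95) and Gpx3 (1.85) were not called without female bone marrow although their values were larger than with all 4 libraries. Without female spleen 6 of 12 were called, and the values were smallest for Ifi27l2a (0.12), Gm8369 (0.16), Gpx3 (0.29), Atp1b1 (0.52) and Ckb (0.59), none of them called, while Apoe was at 0.94 and called. Without male spleen 10 of 12 were called, with Ifi27l2a at 2.43, Gpx3 at 1.94 and Gm8369 at 1.53, while Smad3 at 0.26 and Acsl3 at 0.74 lost the call. Smad3 was at 0.61 and Gm8369 at 1.79 without female bone marrow. Of the 24 genes named by rank in either direction, 2 were called without the sex term, 11 in DESeq2 and 13 with cells thinned to 1000 UMIs, and with the last 2 settings all 24 kept their direction. Without the cells that held another cell type's markers, Atp1b1 (0.79), Gm8369 (0.80) and Smad3 (0.63) were not called.

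**Figure D2:**
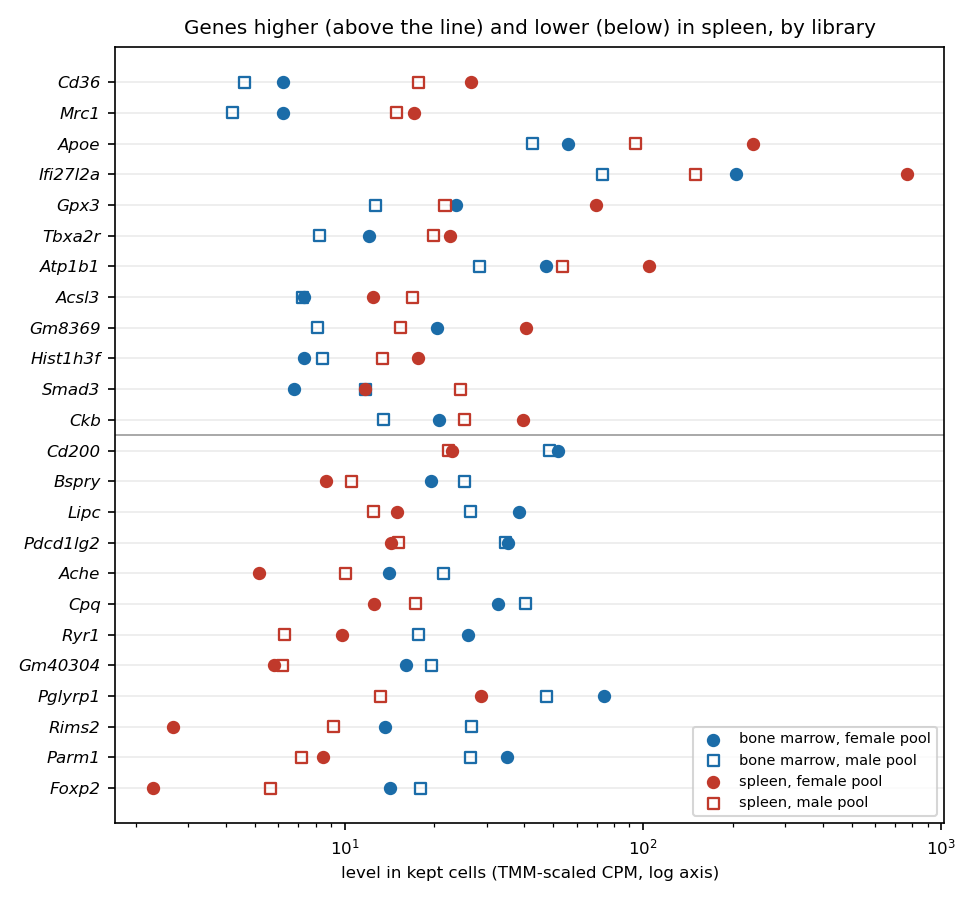
Each row is 1 of the 24 genes named by rank, 12 higher in spleen above the line and 12 lower below it, and each mark is its level in 1 library in TMM-scaled CPM on a log axis, blue for bone marrow, red for spleen, filled for the female and open for the male pool. For Cd36, Mrc1, Cd200 and Pdcd1lg2 the colours separate with a gap, while for Ifi27l2a, Gpx3 and Gm8369 the open red mark of male spleen lies below the filled blue mark of female bone marrow.

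With marker genes of other cell types left out, genes lower in spleen, and so higher in bone marrow, were led by Parm1, Foxp2 and Rims2. Parm1 (ENSMUSG00000034981, chr5:91517615-91626894), which encodes a mucin-like membrane protein, was at 35.1 and 26.4 CPM in bone marrow (female, male) and at 8.47 and 7.20 CPM in spleen, with a log2 fold change of −1.97 ± 0.26 (adjusted p in edgeR = 1.01e-11). Foxp2 (ENSMUSG00000029563, chr6:14901349-15441977), a forkhead transcription factor known from brain development, was at 14.3 and 17.9 CPM in bone marrow and 2.28 and 5.65 CPM in spleen, with a log2 fold change of −2.12 ± 0.27 (adjusted p in edgeR = 7.23e-12). Rims2 (ENSMUSG00000037386, chr15:39198261-39684372), a scaffold protein of regulated exocytosis, was at 13.7 and 26.6 CPM against 2.66 and 9.19 CPM, with a log2 fold change of −1.89 ± 0.26 (adjusted p in edgeR = 3.51e-10). For all 3 the bone marrow libraries lay above both spleen libraries.

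Pdcd1lg2 and Cd200 encode ligands that restrain T cells or myeloid cells. Pdcd1lg2, which encodes PD-L2, was at 35.3 and 34.6 CPM in bone marrow and 14.3 and 15.2 CPM in spleen, with a log2 fold change of −1.24 ± 0.25 (adjusted p in edgeR = 1.91e-04). Cd200, the ligand of an inhibitory receptor on myeloid cells, was at 51.7 and 48.5 CPM in bone marrow and 23.0 and 22.3 CPM in spleen, with a log2 fold change of −1.15 ± 0.26 (adjusted p in edgeR = 0.00166). The 2 sexes differed little for both genes, and the tissues did not overlap. Without the cells that held another cell type's markers, Pdcd1lg2 was at −1.06 and called, while Cd200 was at −0.61 and not called (adjusted p in edgeR = 0.392). In DESeq2 neither was called (adjusted p = 0.0635 for Pdcd1lg2 and 0.0799 for Cd200), nor with cells thinned to 1000 UMIs, at −1.07 and −0.72 (adjusted p in edgeR = 0.0722 and 0.54). A further member of the list of regulatory cytokines and checkpoints, Havcr1 (which encodes TIM-1), was at 2.74 and 5.46 CPM in bone marrow and 1.03 and 0.775 CPM in spleen (−2.06 ± 0.44, adjusted p in edgeR = 5.42e-04), a call lost without male bone marrow (−1.59). Of the 20 genes of that list 13 were tested, and the median log2 fold change was −0.20. Of the 13, 3 were called lower and 0 higher, against 0.919% and 0.455% over all genes tested. Cd274, which encodes the related PD-L1, stood at 29.1 and 30.2 CPM in bone marrow and 33.5 and 40.5 CPM in spleen and was not called, nor were Il10, Ebi3, Lag3 or Tigit.

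Ryr1, the calcium release channel of skeletal muscle that B cells also use, was at 25.95 and 17.7 CPM in bone marrow and 9.77 and 6.31 CPM in spleen (−1.44 ± 0.25, adjusted p in edgeR = 3.98e-06). Ache, acetylcholinesterase, was at 14.1 and 21.4 CPM against 5.16 and 10.1 CPM (−1.26 ± 0.25). Lipc, hepatic lipase, was at 38.4 and 26.5 CPM against 15.0 and 12.5 CPM (−1.22 ± 0.25). Cpq, a secreted carboxypeptidase, and Bspry, a B-box and SPRY domain protein gene, were lower by −1.30 and −1.22, and Gm40304, annotated as antisense and therefore uncertain because the use of strand in counting is not given in the sources used here, by −1.56. In each of these genes both bone marrow libraries lay above both spleen libraries. Pglyrp1, a bactericidal protein of neutrophil granules, was at 74.2 and 47.7 CPM in bone marrow and 28.7 and 13.2 CPM in spleen (−1.60 ± 0.27, adjusted p in edgeR = 9.03e-07). Without cells holding 3 or more neutrophil UMIs it was at −1.29 and called, and in the wider removal of cells with another cell type's markers it was at −0.83 and not called, as were Lipc at −0.77 and Gm40304 at −1.06.

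Called lower in spleen, and named here after their values were seen, were several receptors. Il13ra1, a chain of the IL-13 receptor, was at 86.1 and 121 CPM in bone marrow and 41.3 and 56.6 CPM in spleen (−1.08 ± 0.29, adjusted p in edgeR = 0.0221). Itgav, the alpha V integrin, was at 45.9 and 59.6 CPM against 19.2 and 36.2 CPM (−0.98 ± 0.26, adjusted p in edgeR = 0.0182). Il9r, the IL-9 receptor, was at 7.13 and 6.90 CPM against 2.01 and 1.99 CPM (−1.80 ± 0.34, adjusted p in edgeR = 3.39e-05). The costimulatory ligand Cd86 was at 7.68 and 10.5 CPM against 4.72 and 3.43 CPM (−1.14 ± 0.29). In all 4 the tissues did not overlap. All 4 lost the call without either bone marrow library, where they lay between −1.86 and −0.76, Itgav also without female spleen (−0.55) and Cd86 also without male spleen (−0.997).

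Of the 12 genes lower in spleen, 3 were called without female bone marrow (Parm1 at −1.74, Foxp2 at −2.23 and Rims2 at −2.22) and 1 without male bone marrow (Parm1 at −2.19). Without female spleen 11 were called, Ache at −0.84 being lost, and without male spleen 12. All values lay between −2.98 and −0.84, both ends set by leaving out a spleen library, with Rims2 at −1.16 without female and −2.98 without male spleen.

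Of the receptors that place ASCs in tissues, 1 was called in each direction, S1pr1 higher and Ccr10 lower in spleen. S1pr1, the receptor for sphingosine 1-phosphate that lymphocytes need to leave tissues for blood, was at 3.47 and 1.65 CPM in bone marrow (female, male) and 8.47 and 8.53 CPM in female and male spleen, with a log2 fold change of 1.81 ± 0.33 (adjusted p in edgeR = 1.60e-05). It kept its call without female bone marrow (2.36) and lost it without male bone marrow (1.26) and without the cells that held another cell type's markers (1.37, adjusted p in edgeR = 0.176). Outside the filtered lists, where CPM were not TMM-scaled, S1pr1 was at 8.89 and 8.32 CPM in spleen, close to its level in the kept cells. In bone marrow S1pr1 was at 2.70 and 2.86 CPM there. Ccr10, a chemokine receptor of mucosal ASCs, was at 54.7 and 31.9 CPM in bone marrow and 31.1 and 11.9 CPM in spleen (−1.10 ± 0.26, adjusted p in edgeR = 0.00327). Female spleen lay just below male bone marrow, and the call was lost without female bone marrow (−0.56), male bone marrow (−1.37) or male spleen (−0.49). Cxcr4, the receptor for the bone marrow chemokine Cxcl12, was at 43.0 and 34.8 CPM in bone marrow and 33.6 and 37.5 CPM in spleen and was not called. Itga4, the integrin chain that binds Vcam1, was at 234 and 253 CPM against 308 and 433 CPM, higher in both spleen libraries, and was not called either. Of the 32 genes of the homing and adhesion list 27 were tested, 1 was called higher and 1 lower, and the median was −0.05.

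No gene of the survival and niche receptor list was called among the 24 tested, 1 had an unadjusted p under 0.05, and DESeq2's count was 0. Its most abundant members were Slamf7, an ASC surface receptor, at 829 and 940 CPM in bone marrow and 1037 and 838 CPM in spleen, and Pim1, a survival kinase, at 641 and 659 CPM against 563 and 578 CPM. For Pim1 both spleen libraries lay below both bone marrow libraries, by −0.19 on the log2 scale (SE 0.43), and it was not called. In cells with at least 10% ribosomal protein UMIs it was called lower, at −0.22 (adjusted p in edgeR = 0.0499). Among the 19 plasma cell transcription factors tested of 21, 0 were called, with 1 at an unadjusted p under 0.05 and DESeq2's count also 0, and the median was −0.03. Of 10 B-1 lineage genes tested of 13, 0 were called in edgeR or DESeq2, with 1 at an unadjusted p under 0.05.

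The list of residual B cell genes gave 1 call in each direction. Cr2, the complement receptor of mature B cells, rested on few molecules, 0.366 and 0.515 CPM in bone marrow and 2.23 and 2.88 CPM in spleen (2.50 ± 0.59, adjusted p in edgeR = 0.00387), and was called only without female spleen when 1 library was left out. Outside the filtered lists Cr2 was higher in every library, at 1.56 and 1.87 CPM in bone marrow and 3.36 and 3.97 CPM in spleen. Cd40, the costimulatory receptor, was at 7.68 and 10.6 CPM in bone marrow and 5.27 and 3.54 CPM in spleen (−1.04 ± 0.29, adjusted p in edgeR = 0.0269), and its call was lost without either bone marrow library or male spleen (−1.25, −0.81 and −0.85). The other 19 of the 21 members tested of 25 were not called. The list of 12 mature B cell markers summed to 980 and 996 CPM in bone marrow and 1416 and 938 CPM in spleen. None of the 11 MHC class II genes tested was called in edgeR or DESeq2, with 0 at an unadjusted p under 0.05, and Cd74 was at 13295 and 13741 CPM in bone marrow and 15688 and 10351 CPM in spleen.

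Metallothioneins, small proteins that bind zinc and copper and rise under metal load and glucocorticoids, were lower in spleen, and the pair is examined here down to the promoters. Their genes lie next to each other on chromosome 8, and their promoters carry cores of the metal response element, to which the zinc-sensing factor Mtf1 binds. The RefSeq windows (GRCm38.p6, 250 bases before to 50 after the start site) are shown because the pair moved together, at chr8:94178839-94179138 for Mt1 and chr8:94172368-94172667 for Mt2, both on the plus strand. Capitals mark matches to TGCACNC or TGCGCNC on either strand, 3 in Mt1 and 4 in Mt2, and no match overlaps another. Of 32851 such windows of 300 bases 25.7% hold at least 1 match and 1.97% hold 3 or more.
Mt1: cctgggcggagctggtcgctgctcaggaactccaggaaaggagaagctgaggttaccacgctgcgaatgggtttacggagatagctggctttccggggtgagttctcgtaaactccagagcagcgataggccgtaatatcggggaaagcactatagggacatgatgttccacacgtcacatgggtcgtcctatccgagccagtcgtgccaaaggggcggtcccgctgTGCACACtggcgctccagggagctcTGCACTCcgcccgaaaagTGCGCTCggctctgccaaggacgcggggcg
Mt2: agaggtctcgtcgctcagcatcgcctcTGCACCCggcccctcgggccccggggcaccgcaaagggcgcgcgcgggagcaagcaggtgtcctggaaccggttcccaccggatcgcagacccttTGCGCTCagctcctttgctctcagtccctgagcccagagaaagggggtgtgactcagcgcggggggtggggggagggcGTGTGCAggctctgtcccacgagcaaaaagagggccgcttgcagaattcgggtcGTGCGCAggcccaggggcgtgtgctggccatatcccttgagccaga
A match describes these letters only, and binding was not measured.

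Mt1 (ENSMUSG00000031765) was at 288 and 588 CPM in bone marrow (female, male) and 197 and 130 CPM in female and male spleen, with a log2 fold change of −1.36 ± 0.40 (adjusted p in edgeR = 0.0447). Mt2 (ENSMUSG00000031762) was at 36.4 and 58.8 CPM in bone marrow and 20.9 and 20.2 CPM in spleen (−1.17 ± 0.26, adjusted p in edgeR = 0.0012). For both genes the tissues did not overlap, and the difference was wider in the male pools (−2.17 and −1.54) than in the female ones (−0.55 and −0.80), a contrast between the sexes that was not tested. Both lost the call without female bone marrow (−1.85 and −1.52) and without male bone marrow (−0.85 each). Mt1 reached 540 UMIs in 1 cell of male bone marrow. The inducible heat shock gene Hspa1a was called in the other direction. It had 11 and 0 UMIs in female and male bone marrow and 89 and 17 in spleen (2.02 ± 0.50, adjusted p in edgeR = 0.00792), and the call was lost without male bone marrow (0.75) or female spleen (1.21). Without female bone marrow it was at 8.43, a value that is no bound since the remaining bone marrow library had 0 UMIs. Of the 14 genes tested of the metallothionein and heat shock list these 3 were called.

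Interferon-stimulated genes were called in 1 direction. Of the 39 genes of the list 37 are in the files and 26 were tested. Of these, 4 were called higher in spleen and 0 lower, against 0.455% and 0.919% over all genes tested. The median log2 fold change was 0.46 against 0.02 over all genes. Ifi27l2a is described above. Gbp2, a guanylate-binding protein against intracellular pathogens whose family members resemble each other, was at 4.57 and 4.74 CPM in bone marrow and 10.7 and 9.53 CPM in spleen (1.11 ± 0.29, adjusted p in edgeR = 0.014). Usp18, which removes ISG15 from proteins, was at 1.83 and 1.34 CPM in bone marrow and 7.44 and 2.44 CPM in spleen (1.49 ± 0.40, adjusted p in edgeR = 0.0187). Oasl1, an antiviral regulator, rested on 2 and 3 UMIs in bone marrow and 47 and 11 in spleen (2.35 ± 0.67, adjusted p in edgeR = 0.0392). All 4 were called when male spleen was left out and 0 when any of the other libraries was, with Usp18 at 0.65 and Ifi27l2a at 0.12 without female spleen. Isg15, a ubiquitin-like protein gene, parted by sex. It was at 47.7 and 56.8 CPM in bone marrow and 208 and 57.0 CPM in spleen, high in female spleen and much alike in the other 3 libraries, and was not called. The summed list was 4428 and 3913 CPM in bone marrow and 6281 and 3316 CPM in spleen.

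Histone genes and the cell cycle were examined together. Replication-dependent histone genes, whose messages mostly lack poly(A) tails and whose copies resemble each other, gave 2 calls higher in spleen among 20 tested of 21. The share called higher over all genes tested was 0.455%. Hist1h1a was at 7.13 and 7.41 CPM in bone marrow and 20.7 and 10.6 CPM in spleen (1.02 ± 0.26, adjusted p in edgeR = 0.0135), and Hist1h3c at 15.2 and 21.6 CPM against 38.4 and 31.5 CPM (0.92 ± 0.26, adjusted p in edgeR = 0.0261). When 1 library was left out, both were called only without male spleen. Their levels in barcodes outside the filtered lists were higher than in the kept cells, 27.4 to 72.3 CPM for Hist1h1a and 90.7 to 192 CPM for Hist1h3c. With the profile of those barcodes subtracted the log2 fold change was 0.15 for Hist1h1a, −0.49 for Hist1h3c and −0.16 for Hist1h3f, none called. The 25 S phase and 25 G2 and mitosis genes gave 0 calls in edgeR and DESeq2 and medians of 0.23 and 0.36. An unadjusted p under 0.05 was found for 1 and 6 of them, against 700 of 11207 over all genes. Mki67, the proliferation antigen, was at 220 and 178 CPM in bone marrow and 234 and 258 CPM in spleen.

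Cycling cells, those with at least 3 UMIs of 25 proliferation genes after thinning to 1000 UMIs, made up 5.61% (4.39 to 7.05%, an exact 95% binomial interval) of the kept cells of the female and 4.57% (3.62 to 5.69%) of those of the male bone marrow library. In spleen they were 8.24% (7.36 to 9.20%) in the female and 5.08% (4.13 to 6.18%) in the male pool. Female spleen lay above the other 3 libraries, whose intervals overlap. With 80% light-chain dominance, applied to this share after the data were seen, the shares were 4.90% (3.38 to 6.85%) and 4.19% (2.95 to 5.75%) in bone marrow and 5.52% (4.44 to 6.78%) and 3.34% (1.92 to 5.37%) in spleen, and all 4 intervals overlap. In whole cells without thinning the shares were 20.0%, 26.2%, 32.8% and 25.6%. Intervals cover counting error only. Within Ighm cells the thinned shares were 5.01% and 4.37% in bone marrow and 7.55% and 4.49% in spleen. Within Ighg cells they were 15.4% (9.38 to 23.2%) and 7.46% (2.47 to 16.6%) in bone marrow and 10.8% (8.57 to 13.4%) and 7.82% (4.34 to 12.8%) in spleen, so the female pools had the opposite order there, with overlapping intervals. Within Igha cells they were 0.935% (1 of 107) and 5.0% (3 of 60) in bone marrow and 6.28% (15 of 239) and 11.1% (4 of 36) in spleen. In cells not called cycling 194 genes were called (1.76%), and 145 of the 154 genes were among them. Most cells behind the 154 calls were non-cycling, so this overlap is no independent support.

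Genes of the secretory machinery mostly had positive log2 fold changes, and none was called over all kept cells. Of 37 genes of endoplasmic reticulum (ER) folding and stress, 36 had a positive log2 fold change (6005 of 11207 over all genes), 0 were called in edgeR or DESeq2, none (0) had an unadjusted p under 0.05, and the median was 0.31. Hsp90b1, an ER chaperone, was at 7847 and 7860.5 CPM in bone marrow and 13672 and 12811 CPM in spleen. The difference was 0.75 on the log2 scale with an SE of 0.69. Both spleen libraries lay above both bone marrow libraries for it. The 21 glycosylation genes had a median of 0.23 and 0 calls, 0 of them with an unadjusted p under 0.05. Rpn1, of the oligosaccharyltransferase that adds glycans, was at 961 and 1011 CPM against 1195 and 1203 CPM. The 21 amino acid transport genes tested (of 23) had a median of 0.03 and 0 calls, the 23 oxidative phosphorylation genes 0.08 and 0 calls, the 20 glycolysis and hypoxia genes tested −0.08 and 0 calls, and the 21 immediate early genes tested (of 25) −0.25 and 0 calls. Of these, 1, 0, 1 and 3 had an unadjusted p under 0.05, and for these lists and the glycosylation genes DESeq2 called 0.

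Several of these lists moved apart in the 2 sexes. Oxidative phosphorylation genes had a median log2 ratio of 0.50 in the female and −0.36 in the male pools, MHC class II genes 0.24 and −0.29, and S phase genes 0.56 and −0.08. Cox4i1, a subunit of cytochrome c oxidase, shows the pattern, at 730 and 631 CPM in bone marrow and 1029 and 450.04 CPM in spleen. Female spleen is also the library with the highest share of ribosomal protein UMIs, so the cells were compared again in strata of that share.

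**Figure D3:**
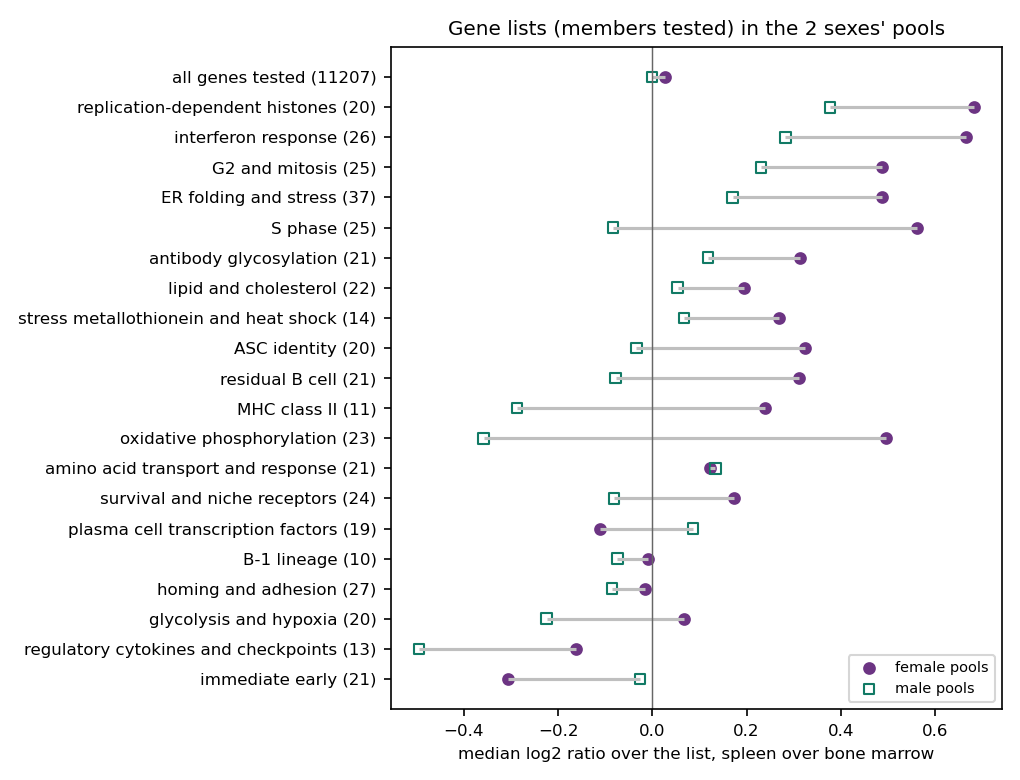
For each gene list, with the number of members tested in brackets, the filled circle is the median log2 ratio of spleen over bone marrow in the female pools and the open square that in the male pools, on the x axis. Histone, interferon, G2 and mitosis, ER folding and glycosylation lists lie right of 0 in both sexes, regulatory cytokines and checkpoints left of 0 in both, and oxidative phosphorylation spans 0 from 0.50 to −0.36.

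Cells with at least 10% ribosomal protein UMIs made up 32.8% and 34.1% of female and male bone marrow cells and 50.5% and 18.2% of spleen cells. Among them 757 of 9949 genes were called (7.61%), and among the cells under 10%, an alternative added after the data were seen, 461 of 10609 (4.35%). The 2 strata shared 195 called genes, 25.8% of the first set and 42.3% of the other, and 194 of these had the same sign. Of the 154 genes, all 114 tested in the first stratum and all 120 tested in the other kept their sign, and 100 and 86 were called again. The strata divide the cells whose sums gave the 154 calls, so kept signs there are no independent support. In the cells with at least 10%, 24 of the 37 ER folding genes were called higher and 1 lower, with Hsp90b1 at 0.68, and in those under 10% 4 were called higher. For oxidative phosphorylation 2 of 23 genes were called higher and 1 lower in the first stratum and 11 higher and 0 lower in the other. Interferon genes were called higher in 10 of 21 tested and 9 of 24 tested, with 0 lower in either. The part of the ribosomal share in the results over all kept cells was not tested.

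In both strata, in Ighm cells and in non-cycling cells all 24 genes named by rank kept their direction. These subsets are parts of the cells that gave the calls. The exceptions elsewhere were Gpx3 in Igha cells and Hist1h3f with the outside profile subtracted. Parm1 was at −2.44 in cells with at least 10% ribosomal protein UMIs and −1.43 in those under 10%, Cd36 at 1.62 and 2.41, Pdcd1lg2 at −1.61 and −0.98, and all of these were called. Lipc was at −1.45 in the first and −0.28, not called, in the other. Without the Ighv9-3 cells, 29.8% of male spleen, 138 genes were called, 128 of them among the 154, and all 24 were called.

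**Figure D4:**
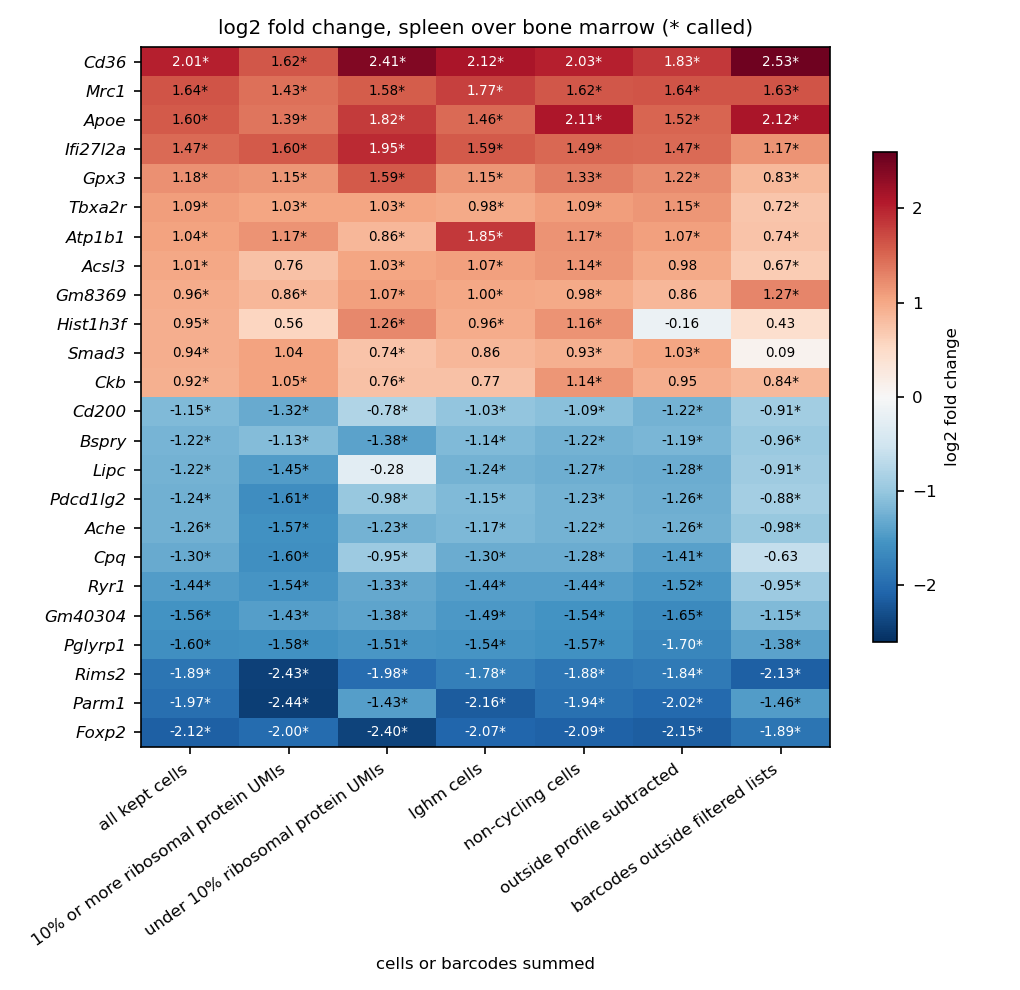
Rows are the 24 genes named by rank and columns the cells or barcodes whose counts were summed, and each field gives the log2 fold change of spleen over bone marrow, red for higher and blue for lower, with a star where the gene was called. The sign holds across the columns except for Hist1h3f with the outside profile subtracted (−0.16).

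The shares of heavy-chain classes had the same order between the tissues in both sexes. A cell was given the constant gene that held at least 50% of its UMIs of such genes. Ighm cells, which make IgM, made up 81.2% and 92.3% of the bone marrow cells (female, male) and 72.4% and 87.8% of the spleen cells. Ighg cells of any subclass were 9.51% (exact 95% binomial interval 7.93 to 11.3%) and 4.03% (3.14 to 5.09%) in bone marrow and 18.6% (17.4 to 20.0%) and 9.68% (8.37 to 11.1%) in spleen. Within a sex the spleen share was the higher one, while male spleen and female bone marrow had overlapping intervals. Among the subclasses, Ighg2c cells were 1.71% and 1.44% in bone marrow and 6.37% and 3.35% in spleen, and Ighg2b cells 5.37% and 1.26% against 8.10% and 3.89%. Igha cells, which make IgA, went the other way within a sex, at 8.70% (7.18 to 10.4%) and 3.61% (2.77 to 4.62%) in bone marrow and 6.70% (5.90 to 7.57%) and 1.95% (1.37 to 2.68%) in spleen. Their intervals overlap in the female pools and not in the male ones. With 2 libraries against 2 an exact permutation test cannot give a p below 0.333, so no share was tested.

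**Figure D5:**
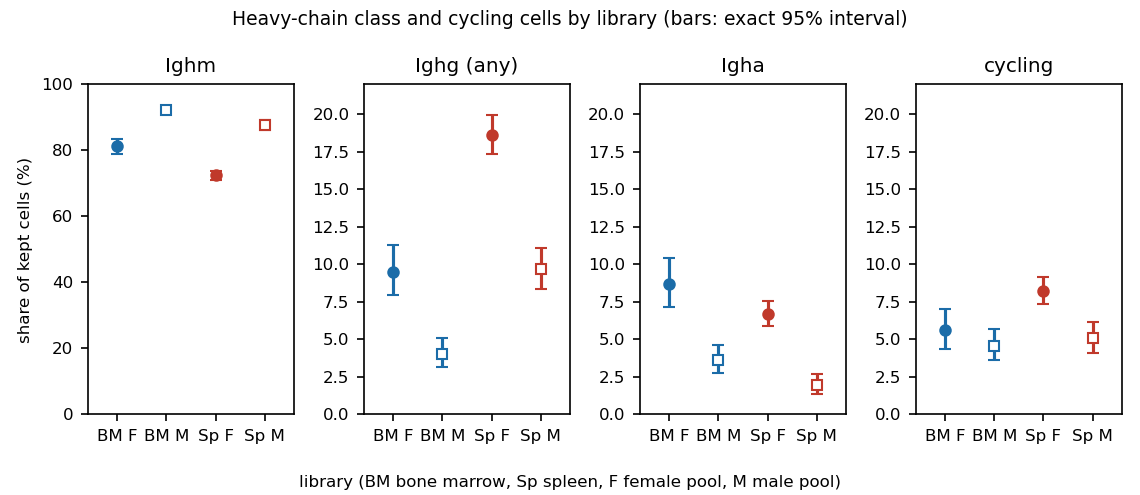
Each panel gives the share of kept cells (%) in the 4 libraries for Ighm, Ighg of any subclass, Igha and cycling cells, with exact 95% binomial intervals as bars, filled marks for female and open marks for male pools. The Ighg share is higher in spleen within each sex (18.6% against 9.51% and 9.68% against 4.03%), and the y axes start at 0 but end at 100 for Ighm and 22 for the rest.

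The gene differences were followed within classes. In Ighm cells alone 132 genes were called (1.2%), 118 of them among the 154, and all 153 that could be tested kept their sign. Ighm cells were 72.4% to 92.3% of the cells behind the 154 calls in each library, so this is no independent support. In Ighm cells Cd36 was at 2.12, Atp1b1 at 1.85, Parm1 at −2.16 and Pdcd1lg2 at −1.15, all called. Ckb at 0.77 and Smad3 at 0.86 were not called. For Atp1b1 the Ighm value was the highest over the settings in which it was fitted, and the lowest was 0.23. In the few Ighg cells 17 genes were called (0.244%) and in Igha cells 9 (0.185%), where fewer genes could be tested. There 32 and 18 of the 154 were tested, of which 30 and 17 kept their sign. Apoe was called in both, at 4.57 and 2.0. S1pr1 was at −0.086 in Ighg cells and Gpx3 at −0.052 in Igha cells, neither called.

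Among the marker lists of other cell types, that of neutrophils had the widest gap between the tissues. The 15 neutrophil genes summed to 3739 and 13173 UMIs in female and male bone marrow and to 8 and 2 UMIs in spleen, and all 9 members tested were called lower, 9 of the 103 genes lower in spleen. S100a8, an abundant calcium-binding protein of neutrophils, had 4979 UMIs over both bone marrow libraries but 1 over both spleen libraries, a depth-scaled ratio of 9001 (counting interval 1615 to 355577), and S100a9 had 5510 and 2, a ratio of 4980.3 (1378 to 41134). Camp, a granule peptide, had 2151 and 0 UMIs and was at least 1296-fold lower in spleen, taking 3 UMIs over both spleen libraries as the floor. Of the S100a8 UMIs, 855 were in 1 cell of female and 2312 in 1 cell of male bone marrow, while 419 of 1230 and 656 of 1662 bone marrow cells held at least 1 UMI of the list. Without the 20 and 52 bone marrow cells with 3 or more such UMIs, an alternative added after the data were seen, 126 genes were called, 124 of them among the 154, and 23 of the 24 genes named by rank stayed called, Smad3 (0.90) being the exception.

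For the other marker lists the summed levels of the 2 tissues overlapped. T and NK markers summed to 96.9 and 57.0 CPM in bone marrow and 95.1 and 53.6 CPM in spleen, with Cd8b1 called higher (0.731 and 0.824 against 3.91 and 2.55 CPM) and Cd3g lower (7.68 and 8.34 against 4.67 and 1.11 CPM). Cd8b1 was called only without male spleen and Cd3g only without female spleen when 1 library was left out. Stromal and endothelial markers summed to 32.2 and 25.7 CPM against 30.7 and 29.8 CPM, erythroid markers to 20.1 and 13.4 CPM against 7.87 and 22.5 CPM, and basophil, mast and megakaryocyte markers to 4.39 and 2.06 CPM against 2.39 and 4.21 CPM. Dendritic and plasmacytoid markers, of which Tcf4, Cst3 and Bst2 are also expressed by ASCs, summed to 1483 and 1353 CPM against 1875 and 1198 CPM. Members of the lists without a UMI in any of the 4 libraries numbered 2, 2, 1, 5 and 3, in that order. With every cell that held 3 or more UMIs of such a list left out (mature B and dendritic lists excepted), 72 genes were called, 36 in each direction, 49 of them among the 154, and 102 of the 103 of these genes that could be tested kept their sign. The part of these markers in the other calls was not tested.

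Barcodes on the filtered lists that failed the conditions for kept cells were also compared, an alternative added after the data were seen. In these barcodes 942 genes were called. Of the 154 genes 149 were tested there, 144 kept their sign and 104 were called again. All 24 genes named by rank kept their direction, and 20 were called. What cells these barcodes hold was not tested. Barcodes outside the filtered lists, which hold free RNA and any cells not called, differed between the tissues too. There 436 of 12206 genes were called (3.57%), and all 154 genes had the same sign, 116 of them called. Named genes were compared with their outside level in the tissue where they were higher. There 6 of the 12 spleen genes and 11 of the 12 bone marrow genes were above it in both sexes. Outside levels, here and elsewhere, are CPM without TMM scaling, unlike those of kept cells. The factors of kept cells were 0.866 and 1.14 in female and male spleen and 0.966 and 1.05 in bone marrow. Close comparisons with outside levels are therefore uncertain. Bspry was at 19.6 and 25.2 CPM in kept bone marrow cells and at 5.70 and 12.1 CPM outside, and Tbxa2r at 22.5 and 19.9 CPM in kept spleen cells and 8.98 and 7.35 CPM outside. Cd36, Acsl3 and Hist1h3f were at or below their outside level in both spleen libraries, Cd36 at 26.6 and 17.7 CPM against 35.9 and 25.2 CPM. Apoe, Ifi27l2a and Gm8369 were above their outside level in a single spleen library, and Pglyrp1 in a single bone marrow library. With the outside profile subtracted in proportion to the light-chain estimate, 94 genes were called, 92 of them among the 154, with Cd36 at 1.83, Mrc1 at 1.64, Apoe at 1.52 and Parm1 at −2.02, all called, and Acsl3 (0.98), Gm8369 (0.86) and Ckb (0.95) no longer called.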

How the data were processed

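Single-cell gene expression libraries of spleen and bone marrow antibody-secreting cells were analysed, 1 per tissue and sex, from the deposited filtered and raw UMI counts. The counts were made with Cell Ranger on a GRCm38 (mm10) reference, per the file headers and the submitters' processing notes, which name versions 4 and 6.0.2. Which library used which version is known only where a header gives it. The part of the version in the results was not tested. The use of strand in counting is not given in the sources used here. No columns of other samples were used, and the antigen receptor libraries were not used here.

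Counts of kept cells were summed per library without the 395 genes starting Igh, Igk or Igl. They were tested with edgeR 4.0.16 (R 4.3.3) by glmQLFit and glmQLFTest, with filterByExpr and TMM scaling. Log2 ratios within a sex had a prior count of 0.5. Sex and tissue were terms of the model. This leaves 1 residual degree of freedom, and every gene took the trended spread (common biological coefficient of variation 0.166). The code was tested on simulated data. DESeq2 1.42.0 was an alternative. Other steps used numpy 2.4.6, scipy 1.17.1, pandas 2.3.3 and matplotlib 3.10.9.

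In each direction, the 12 called genes with a mean of at least 10 CPM and the largest smaller within-sex ratio were named, leaving out marker genes of other cells and sex-linked genes. Up to 4 called members of each biological list, or else the 2 most abundant members, 4 sort genes and the 3 most abundant markers of each other cell type were added. Genes outside this rule (Cxcr4, Itga4, Cd274, Il10, Ebi3, Lag3, Tigit, Isg15, Scd1, C1qb, Cd8b1, Il13ra1, Itgav, Il9r and Cd86) were named after their values were seen. The comparison and all gene lists were chosen with earlier results of these data known, so no list count is independent support.

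Alternatives were the scaling, the tool, the filter on low counts, the model, each library left out, cell filters (500 or 2000 UMIs, 80% light-chain dominance), thinning, subtraction of the outside profile and subsets of cells. Binomial intervals are exact (Clopper-Pearson, 95%) and cover counting error only. No doublet caller was run, and doublets were treated only through the light-chain condition and its 80% alternative.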

Additional observations from a re-analysis of the deposited data

Results flagged for a closer look

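Many gene lists had a summed level that was higher in spleen in the pools of one sex and lower in those of the other. The difference between the sexes was not tested, since a model with an interaction has no residual degrees of freedom here. The values are the log2 ratio of spleen over bone marrow in the female pools minus that in the male pools. They were positive, so that spleen was relatively higher in the female pools, for ASC identity genes (0.85), plasma cell transcription factors (0.21), survival and niche receptors (0.22), homing and adhesion (0.30), residual B cell genes (0.58) and MHC class II (0.60). The same held for S phase (0.63), interferon response (0.74), oxidative phosphorylation (0.82), glycolysis and hypoxia (0.66) and the metallothionein and heat shock list (0.51). Of the marker lists of other cells, those of macrophages (0.34), dendritic cells (0.51) and mature B cells (0.62) were positive as well. Erythroid markers (−2.10) and basophil, mast and megakaryocyte markers (−1.91) were negative and rested on few molecules.

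Barcodes outside the filtered lists, which the comparison of kept cells does not use, held 436 genes called between spleen and bone marrow.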

How the results depend on the processing

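DESeq2's size factors, no filter on low counts, cells with 500 or 2000 UMIs, Ighm cells, leaving out Ighv9-3 cells and leaving out cells with neutrophil markers (added after the data were seen) kept the total within 1.5 times the 154 genes called. So did 80% light-chain dominance, at 226 (75 higher, 151 lower). Other settings moved the total, the genes higher or the genes lower in spleen (154, 51 and 103) further, in that order. DESeq2's test gave 20, 4 and 16, a fit to all 6 libraries 49, 8 and 41, and a model with no sex term 15, 1 and 14. Leaving out 1 library, and with it the sex term, gave 28 to 523, 5 to 282 and 23 to 241. Thinning cells to 1000 UMIs gave 39, 11 and 28, and thinning libraries to the smallest 100, 32 and 68. Subtracting the outside profile gave 94 and 25 higher, and leaving out cells with markers of other cell types 72 and 36 lower. Cells with at least 10% ribosomal UMIs gave 757, 372 and 385, those under 10% (added after the data were seen) 461, 264 and 197, Igha cells 9, 4 and 5, Ighg cells 17, 8 and 9, and non-cycling cells 85 higher. The cause of these shifts was not tested.

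Among named genes the sign turned for Gpx3 in Igha cells (−0.052), S1pr1 in Ighg cells (−0.086), and Hist1h3f (−0.16) and Hist1h3c (−0.49) with the outside profile subtracted. In the male pools, spleen minus bone marrow in percentage points moved with 80% light-chain dominance from −4.46 to −8.03 for Ighm and from 5.64 to 9.41 for Ighg cells, and for cycling cells from 0.508 to 2.84 at a minimum of 2 UMIs and to −0.199 in cells with at least 10% ribosomal UMIs. With 80% light-chain dominance (added after the data were seen) the cycling difference was −0.846 in the male pools and moved from 2.63 to 0.623 in the female pools. Of the 154 genes called, 18 could be tested in Igha and 32 in Ighg cells, so the depth of these subsets limits what they show.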
